A study of Mus musculus with 16 samples.

Results

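The comparison described here is the deletion of Card9 in microglia of 5xFAD mice. It sets the 4 libraries of the genotype Card9-/-5xFAD against the 4 libraries of 5xFAD, 8 of the 16 libraries of the series, across all genes. Each library holds RNA of cells bound by CD11b magnetic beads from the brain of a mouse of 20 weeks, after perfusion and after the meninges and choroid plexus were taken off. The methods of the study name female 5xFAD mice among those obtained for crossing. 5xFAD is a model of amyloid deposition made with mutated human transgenes, driven by the neuronal Thy1 promoter, and in these 8 libraries both groups carry them. The study uses the name 5xFAD for Card9+/+5xFAD mice and names mice with a single intact copy of Card9 separately. The labels give the genotype of these 4 libraries only as 5xFAD. Card9-/-5xFAD mice lack Card9 from the germline, so the gene was missing from all cells and not from microglia alone. The other 8 libraries, 4 of Card9-/- and 4 of WT mice without the transgenes, enter the same model fit and give the Card9 comparison outside 5xFAD.

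CARD9 is an adaptor protein of myeloid cells. Receptors of the C-type lectin family, such as Dectin-1, and other receptors that signal through the kinase SYK act on it, and it joins BCL10 and MALT1 in a complex that activates NF-kB. Microglia are the resident macrophages of the brain, and near amyloid plaques they lower homeostatic genes such as P2ry12 and turn on a set of genes known as disease-associated microglia (DAM) genes, among them Apoe, Trem2, Spp1 and Lgals3.

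Reads counted on genes ranged from 2970148 to 10408110 in the 8 libraries. The shallowest was Card9-/-5xFAD replicate 4, in which ribosomal protein genes took 6.29% of the counts. In 5xFAD replicate 1 they took 4.39%, against 2.42% to 3.48% in the other 6 libraries. On the first principal component of the 8 libraries (62.4% of the variance) these libraries had scores of -47.2 and -31.7, against -6.63 to 29.5 in the others, and the summed expression of 10 microglia markers was lowest in them, at 19300 and 18800 CPM. All 8 libraries expressed the microglia markers P2ry12, Siglech and Csf1r at 1567 CPM or more. CPM are counts scaled to the library total after TMM normalization.

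No gene differed between Card9-/-5xFAD and 5xFAD at a false discovery rate (FDR) under 0.1 in edgeR's quasi-likelihood test, out of 14513 tested (0.0% called). The lowest FDR was 0.552, for Gnb4, and the FDR of every other gene named below was 0.993 or higher. DESeq2 run as an alternative called 2 genes with all 16 libraries in the fit (Gnb4 and Madcam1) and 9 with the 8 libraries alone (Gnb4, Ppfia4, Klf4 and Iqcn higher, and Madcam1, Igfbp2, Scand1, Gm18736 and Bend7 lower). An unadjusted p under 0.05 was reached by 366 genes (2.52%), fewer than the 725.65 that this threshold gives by chance over as many independent genes, with 159 genes higher (1.1%) and 207 lower (1.43%) in Card9-/-5xFAD. This split turned without 5xFAD replicate 1 (279 higher and 129 lower) and without Card9-/-5xFAD replicate 1 (127 higher and 93 lower). The values of all 4 libraries of one group lay above those of the other for 275 genes (1.89%), 141 of them higher (0.972%) and 134 lower (0.923%) in Card9-/-5xFAD. Of all tested genes 62% had a log2 fold change above 0, the median log2 fold change was 0.14, and the median SE of a log2 fold change was 0.44. The gene differences that follow are given as log2 fold changes with their SE over 4 libraries a group. The genes named for Card9-/-5xFAD against 5xFAD had an unadjusted p under 0.05 unless stated otherwise, and none passed the FDR threshold in this test.

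The count table still held reads on Card9 in the Card9-/-5xFAD libraries. Card9 lies on chromosome 2 from 26352176 to 26360918 (GRCm38, minus strand) and overlaps Gm13562 on the other strand. It measured 15.6, 32.6, 29.1 and 33.5 CPM in 5xFAD replicates 1 to 4, and 26.6, 33.7, 9.73 and 10.8 CPM in Card9-/-5xFAD replicates 1 to 4. The groups overlapped, with a log2 fold change of -0.44 (SE 0.45, p above 0.05). Counts per gene do not tell which exons the reads lay on, so this level does not check the deletion and the genotypes rest on the labels.

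Nfkbiz, which codes for the nuclear inhibitor IkB-zeta and is itself turned on by NF-kB, was among the 15 genes of lowest p on the higher side. It measured 45.2, 44.7, 57.4 and 73.5 CPM in 5xFAD and 147, 120, 177 and 82.1 CPM in Card9-/-5xFAD. All 4 Card9-/-5xFAD libraries lay above the 5xFAD libraries (log2 fold change 1.25, SE 0.31). Nfkbid, which codes for the related nuclear protein IkBNS, measured 22.7, 15.1, 19.2 and 28.3 CPM in 5xFAD and 35.2, 35.9, 40.7 and 34.4 CPM in Card9-/-5xFAD, again without overlap (log2 fold change 0.78, SE 0.25). Cyld, a deubiquitinase that limits NF-kB signaling, had a log2 fold change of 0.64 (SE 0.30) with overlapping groups since Card9-/-5xFAD replicate 3 (35.8 CPM) lay within the 5xFAD range of 32.2 to 56.5 CPM. Of 16 tested NF-kB subunits and feedback genes, 13 had a log2 fold change above 0 (81.25%, against 62% of all tested genes). Of the 16, 3 reached p under 0.05 on the higher side and none on the lower side. The median of this list was 0.09 and that of all genes 0.14, an order that turned without Card9-/-5xFAD replicate 4 (0.26 and 0.04) and without replicate 3 of that group (0.24 and 0.19). Without 5xFAD replicate 1, 9 of the 16 lay above 0 and 7 below, with a list median of 0.03. The subunits Nfkb1 and Relb had log2 fold changes of 0.09 (SE 0.27, p above 0.05) and -0.17 (SE 0.37, p above 0.05). Tagap, a GTPase-activating protein, was also without overlap, at 52.2, 47.4, 50.4 and 69.5 CPM in 5xFAD and 115, 111, 83.9 and 90.5 CPM in Card9-/-5xFAD (log2 fold change 0.87, SE 0.26).

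Of 25 tested genes that act with CARD9 in its pathway (C-type lectin receptors, SYK, the partners of CARD9 and kinases downstream of it), none reached p under 0.05. A log2 fold change above 0 was found for 18 (72%) and below 0 for 7, with a median of 0.27. Over all tested genes 62% lay above 0, with a median of 0.14. Without Card9-/-5xFAD replicate 4, 15 of the 25 lay above 0, with a median of 0.10 against 0.04 for all genes. The lowest p was that of Clec4n, the receptor Dectin-2, with a log2 fold change of -0.71 (SE 0.40, p above 0.05). Malt1, the protease of the CARD9 complex, had a log2 fold change of 0.41 (p above 0.05).

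Early response genes, which cells turn on within minutes of a stimulus and which handling of tissue also raises, formed the list with the highest median. Of 28 tested members 27 had a log2 fold change above 0, with a median of 0.56 against 0.14 for all genes, and 4 reached p under 0.05, all higher (Btg2, Egr1, Fosb and Klf4). Their summed level was 3380, 5990, 8820 and 11600 CPM in 5xFAD replicates 1 to 4 and 12900, 14300, 12800 and 8000 CPM in Card9-/-5xFAD replicates 1 to 4. The groups overlapped through 5xFAD replicate 4 and Card9-/-5xFAD replicate 4. The median was 0.72 without Card9-/-5xFAD replicate 4 and 0.41 without 5xFAD replicate 1. Libraries also differed in how expression ran with gene length. For this, log2 CPM was taken as the deviation from the gene's mean over all 16 libraries. The slope of this deviation on log2 exon length was -0.243, -0.123, -0.145 and 0.0774 in 5xFAD replicates 1 to 4. It was 0.14, 0.127, -0.163 and -0.17 in Card9-/-5xFAD replicates 1 to 4, and its part in the result was not tested.

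Btg2, an antiproliferative gene, measured 453.6, 531.7, 874.4 and 1293 CPM in 5xFAD and 1659, 1977, 1480 and 2950 CPM in Card9-/-5xFAD. No library overlapped (log2 fold change 1.36, SE 0.34). Klf4, a transcription factor of the Kruppel-like family, measured 18.5, 16.4, 32.9 and 14.4 CPM in 5xFAD and 70.7, 55.6, 59.3 and 70.5 CPM in Card9-/-5xFAD, with no overlap (log2 fold change 1.64, SE 0.74). Outside 5xFAD the same gene spread widely within a group, from 16.5 to 120 CPM in WT and from 12 to 214 CPM in Card9-/-. Fosb, a subunit of the factor AP-1, measured 14, 7.81, 16 and 11.2 CPM in 5xFAD and 26.5, 21.4, 43.3 and 45.3 CPM in Card9-/-5xFAD, also without overlap (log2 fold change 1.48, SE 0.62). Egr1, a zinc finger factor, overlapped because Card9-/-5xFAD replicate 4 (195 CPM) lay below 5xFAD replicate 4 (409.8 CPM), and its log2 fold change was 1.11 (SE 0.40). Fos had a log2 fold change of 0.75 (p above 0.05), Dusp1 of 0.82 (p above 0.05), and Maff, at -0.18 (p above 0.05), was the only tested member below 0.

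The promoters of these genes were searched for 2 motifs on both strands in the 250 bases before the RefSeq start site (GRCm38.p6). Of the 30 listed genes 25 had a promoter window, and the other 5, Klf4 and Fosb among them, were not searched. The cAMP response element, TGACGTCA, stood in 4 of 25 early response genes with a window (16%) and in 478 of 27025 genes overall (1.77%), and the AP-1 site, TGACTCA, in 1 of 25 (4.0%) and in 5.16% of all genes. Neither motif contains the other. Among tested genes with a window the shares were 3.03% and 3.89%. The stretches with the cAMP response element are shown because it was more frequent in these genes than in all genes, with the element in capitals. Btg2 is given from chr1:134079242-134079361 (minus strand), Dusp1 from chr17:26508536-26508655 (minus strand), Ppp1r15a from chr7:45526269-45526320 (minus strand) and Maff from chr15:79347451-79347519 (plus strand), each 5' to 3' on the strand of the gene.
Btg2: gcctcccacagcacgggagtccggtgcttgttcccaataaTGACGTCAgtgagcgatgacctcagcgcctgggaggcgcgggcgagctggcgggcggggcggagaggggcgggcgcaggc
Dusp1: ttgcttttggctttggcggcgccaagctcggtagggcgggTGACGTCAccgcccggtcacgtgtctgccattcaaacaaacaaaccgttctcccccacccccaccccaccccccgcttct
Ppp1r15a: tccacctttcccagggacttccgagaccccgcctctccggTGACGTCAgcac
Maff: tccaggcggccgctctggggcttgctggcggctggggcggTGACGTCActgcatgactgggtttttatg
The 4 genes with the element ran from -0.18 (Maff) to 1.36 (Btg2) in log2 fold change, with Ppp1r15a, a stress-induced phosphatase subunit, at 0.62 (p above 0.05).

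Lists that overlap with the early response in function lay on the same side. Kruppel-like factors had 10 of 12 tested members above 0 (median 0.44, against 0.14 for all genes), or 7 of 12 without Card9-/-5xFAD replicate 1. Klf4 is in both this list and that of early response genes. In Card9-/- against WT also 10 of 12 lay above 0 (median 0.43). The summed level of Kruppel-like factors did not overlap between groups, at 702, 789, 980 and 946 CPM in 5xFAD and 1260, 1190, 1400 and 1090 CPM in Card9-/-5xFAD. Klf2 had 47.7 to 86.6 CPM in 5xFAD and 96.2 to 246 CPM in Card9-/-5xFAD (log2 fold change 1.29, SE 0.65, p above 0.05). Heat shock genes had 12 of 14 above 0 (median 0.32), or 9 of 14 without 5xFAD replicate 4 (median 0.12), with Dnajb1, a co-chaperone of HSP70, at 0.76 (SE 0.33) and Hspa1a, an HSP70 itself, at 0.82 (SE 0.37). Both overlapped between groups. For Dnajb1 Card9-/-5xFAD replicate 4 lay at 62.5 CPM, below the 5xFAD range of 66.4 to 102 CPM. For Hspa1a 5xFAD replicate 4 (314 CPM) lay above Card9-/-5xFAD replicates 1, 3 and 4 (304, 263 and 212 CPM).

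Several of the largest differences on the higher side came from some of the Card9-/-5xFAD libraries only. Gnb4, a beta subunit of heterotrimeric G proteins on chromosome 3 (32580332 to 32616585, overlapped by Gm37640 on the other strand), measured 0.455, 0.411, 0.899 and 0.409 CPM in 5xFAD and 22.6, 17.5, 0.695 and 16.4 CPM in Card9-/-5xFAD. Replicates 1, 2 and 4 of Card9-/-5xFAD were far above the 5xFAD libraries and replicate 3 lay among them (log2 fold change 4.71, SE 0.84). Ppfia4, the scaffold protein liprin-alpha-4, had the same order: 40.5, 31.5, 30.8 and 36.2 CPM in 5xFAD against 353, 307, 31.6 and 213 CPM in Card9-/-5xFAD (log2 fold change 2.70, SE 0.85). Klhl12, an adaptor of cullin-3 ubiquitin ligase, was lowest in replicate 3 as well, at 10.4, 7.87, 2.43 and 7.21 CPM against 1.26 to 3.03 CPM in 5xFAD (log2 fold change 1.73, SE 0.49). Btg2 (134075170 to 134079120), Ppfia4 (134296783 to 134332928) and Klhl12 (134455531 to 134491018) lie close together on chromosome 1. Whether these neighbours vary together because they are inherited together was not tested.

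For 3 further genes replicates 1 and 2 stood alone. The processed pseudogene Gm15459 measured 289, 368, 16.7 and 3.20 CPM in Card9-/-5xFAD, with 5xFAD libraries at 14 to 19.2 CPM (log2 fold change 3.37, SE 0.93); its reads may be shared with the gene it was copied from or with Gm26825 on the other strand. Jaml, a junctional adhesion molecule of leukocytes, measured 15.1, 18.8, 1.22 and 1.6 CPM against 0.953 to 2.70 CPM (log2 fold change 2.34, SE 0.69). Trim39, a ubiquitin ligase, measured 39.3, 34.0, 12.9 and 10.8 CPM against 5.76 to 14.7 CPM (log2 fold change 1.32, SE 0.41). The 2 libraries with high values were the same for all 3 genes, which lie on chromosomes 5, 9 and 17.

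Card9-/-5xFAD replicate 3 was the library of its group nearest to 5xFAD for 86 of the 159 genes higher at p under 0.05 (54.1%) and for 124 of the 207 lower ones (59.9%). Over all tested genes with a log2 fold change above 0 its share was 39.0%, and it was 39.0% below 0 too. Without this library 976 genes reached p under 0.05 and Gnb4 passed the FDR threshold (0.00595).

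Other genes on the higher side differed in all 4 libraries but at low counts. Iqcn, an IQ motif protein, had 0, 0.137, 0.360 and 0.545 CPM in 5xFAD and 2.96, 2.62, 3.13 and 2.40 CPM in Card9-/-5xFAD (log2 fold change 3.35, SE 1.04), with 0 to 4 reads in each 5xFAD library. Spry2, a feedback inhibitor of growth factor signaling, had 0 to 1 read in each 5xFAD library and 8, 8, 2 and 4 reads in Card9-/-5xFAD, a ratio of 7.24 relative to library size (95% counting interval 2.17 to 37.8). Zmat3, an RNA-binding protein induced by p53, had 2.88 to 3.64 CPM in 5xFAD and 8.09, 6.28, 3.65 and 8.41 CPM in Card9-/-5xFAD (log2 fold change 1.04, SE 0.33). Its groups did not overlap, but Card9-/-5xFAD replicate 3 lay just above 5xFAD replicate 1. Zmat3 lies near Gnb4 on chromosome 3, from 32334792 to 32366014.

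**Figure D1:**
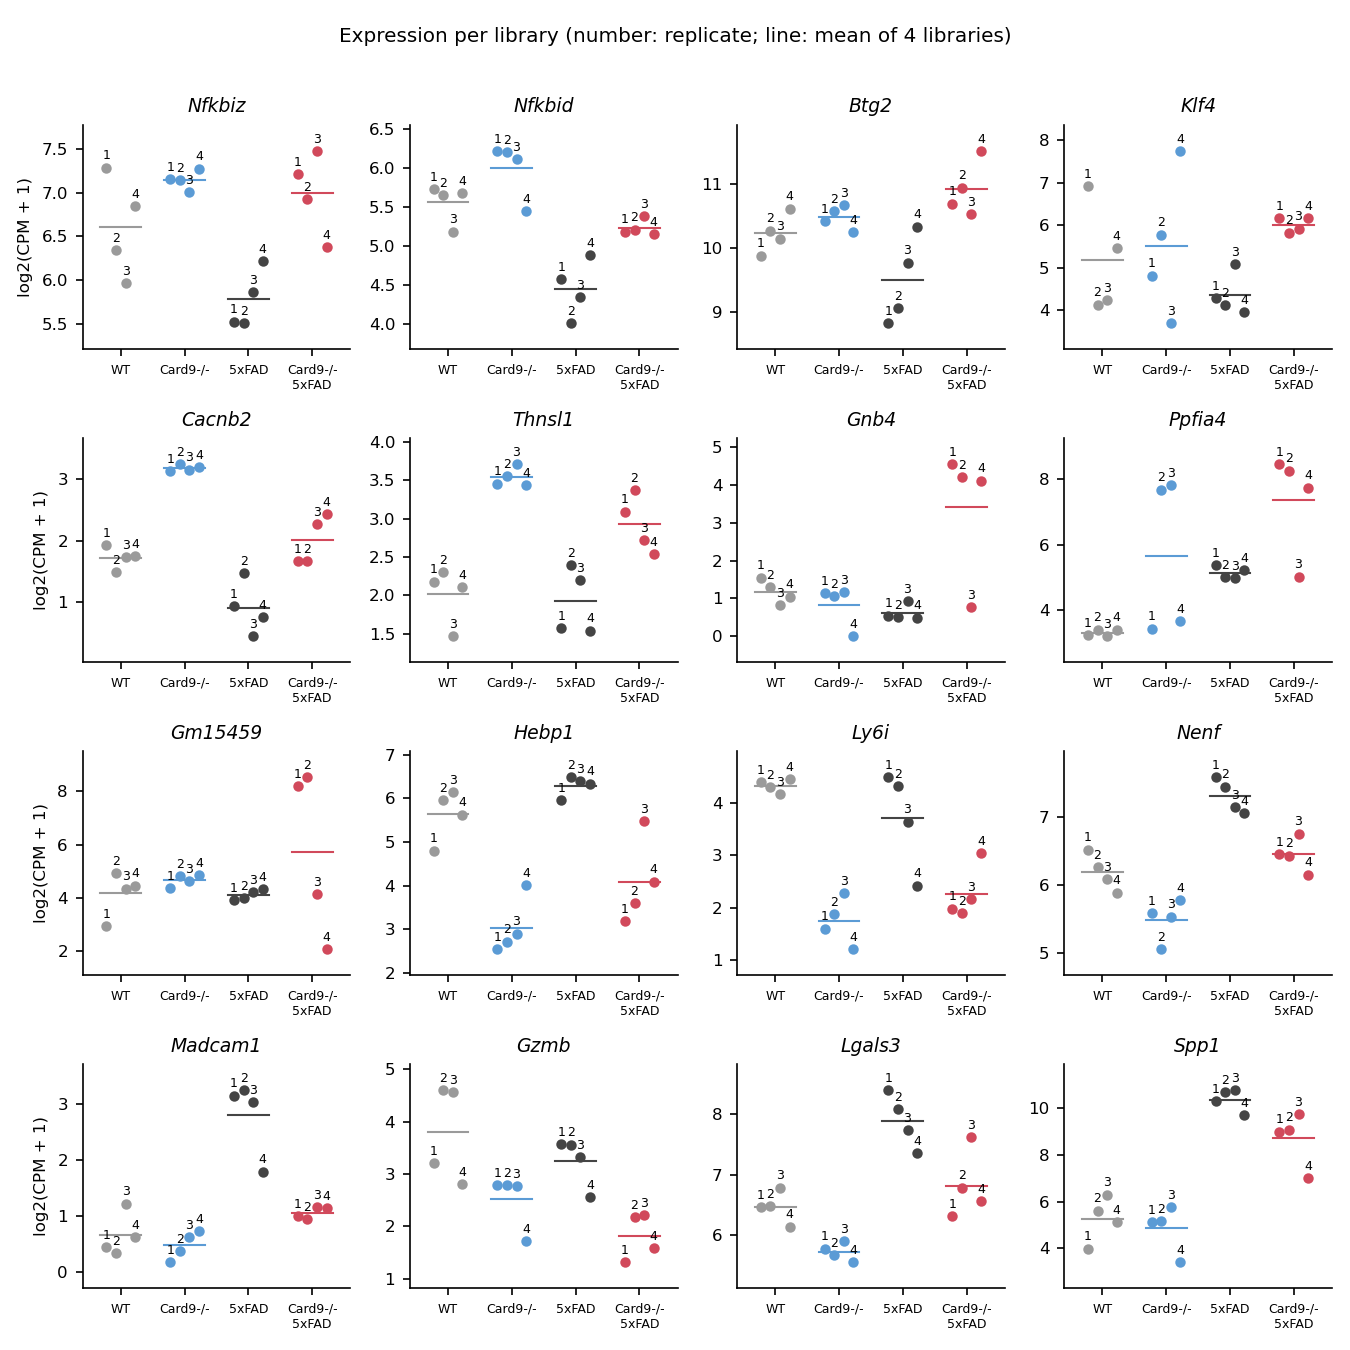
Expression of 16 genes in every library, as log2 of CPM plus 1 on the vertical axis, by genotype (columns of 4 points; the number is the replicate and the line the mean of 4 libraries). Nfkbiz, Nfkbid, Btg2 and Klf4 lie higher in all 4 Card9-/-5xFAD libraries than in 5xFAD, Gnb4 and Ppfia4 in all but replicate 3, and Gm15459 in replicates 1 and 2, while Hebp1 and Ly6i are low in both Card9-deficient genotypes.

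On the lower side the lowest p was that of Madcam1, the addressin that binds the lymphocyte integrin alpha-4 beta-7. It measured 7.89, 8.5, 7.19 and 2.45 CPM in 5xFAD and 0.987, 0.913, 1.22 and 1.20 CPM in Card9-/-5xFAD. The groups did not overlap (log2 fold change -2.60, SE 0.56), and the Card9-/-5xFAD values lay inside the WT range of 0.257 to 1.32 CPM. Bend7, a BEN domain protein, had 16, 9, 27 and 23 reads in the 5xFAD libraries and 3, 0, 2 and 1 in Card9-/-5xFAD, a 5xFAD level 12.7 times as high relative to library size (95% counting interval 5.55 to 35.6). Scand1, a SCAN domain protein, measured 69.5, 44.1, 41.7 and 33.6 CPM against 14.4, 20.5, 19.3 and 15.6 CPM, also without overlap (log2 fold change -1.43, SE 0.45), and it overlaps Cnbd2 on the other strand. Gm18736 had 1.06, 13.7, 0.180 and 9.13 CPM in 5xFAD and 0 to 2 reads in each Card9-/-5xFAD library, a 5xFAD level 59.1 times as high relative to library size (95% counting interval 19.9 to 289). Its groups overlapped at 5xFAD replicate 3, and replicates 2 and 4 held most of its reads.

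Hebp1, a heme-binding protein, measured 61.1, 88.8, 82.9 and 79.9 CPM in 5xFAD and 8.09, 11.1, 43.6 and 16 CPM in Card9-/-5xFAD. Replicate 3 was again the Card9-/-5xFAD library nearest to 5xFAD, without reaching it (log2 fold change -1.99, SE 0.50). Nenf, the secreted protein neudesin, measured 192, 174, 140 and 133 CPM against 86.7, 85.2, 107 and 70.1 CPM, without overlap (log2 fold change -0.87, SE 0.24). Ly6i, a surface protein of the Ly6 family, measured 21.5, 18.9, 11.5 and 4.36 CPM in 5xFAD and 2.96, 2.74, 3.48 and 7.21 CPM in Card9-/-5xFAD. Its groups overlapped at 5xFAD replicate 4 (log2 fold change -1.84, SE 0.46), and reads may be split with its close Ly6 paralogs. Ebi3, a subunit shared by interleukins 27 and 35, had 30.9 to 54.7 CPM in 5xFAD and 16 to 35.1 CPM in Card9-/-5xFAD (log2 fold change -0.99, SE 0.28).

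The other 7 of the 15 genes of lowest p on the lower side lay at 18.8 CPM or less in these 8 libraries, apart from Pdlim4, which codes for a PDZ and LIM domain protein. Pdlim4 measured 229, 131, 232 and 172 CPM in 5xFAD and 84.8, 85.6, 137 and 55.3 CPM in Card9-/-5xFAD (log2 fold change -1.07, SE 0.31), and its groups overlapped at 5xFAD replicate 2. Thg1l, a tRNA guanylyltransferase, ran from 9.32 to 18.8 CPM in 5xFAD and from 4.41 to 9.21 CPM in Card9-/-5xFAD (log2 fold change -1.07, SE 0.31). Pilrb1, a paired immunoglobulin-like receptor, overlapped at 5xFAD replicate 4, at 4.22 to 9.10 CPM against 2.80 to 4.34 CPM (log2 fold change -1.03, SE 0.30). Groups did not overlap for Thg1l or for the genes that follow. Ly6g6e, of the Ly6 family, ran from 5.72 to 12.6 CPM in 5xFAD and from 2 to 4.34 CPM in Card9-/-5xFAD (log2 fold change -1.43, SE 0.37), and it overlaps Ly6g6d on the other strand. Col23a1, a transmembrane collagen, had 1 to 5 reads in each Card9-/-5xFAD library (log2 fold change -2.08, SE 0.57), and Gm49980 ran from 1.97 to 7.54 CPM against 1.04 to 1.78 CPM (log2 fold change -1.81, SE 0.53). 5430437J10Rik had 4 to 12 reads in each 5xFAD library and 1 to 2 in Card9-/-5xFAD, a 5xFAD level 3.76 times as high relative to library size (95% counting interval 1.59 to 10.3).

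Both granzymes and Cd2 had negative log2 fold changes. Gzmb, the cytotoxic protease granzyme B, measured 10.9, 10.8, 8.99 and 4.90 CPM in 5xFAD and 1.48, 3.54, 3.65 and 2 CPM in Card9-/-5xFAD, with no overlap (log2 fold change -1.72, SE 0.50). Gzma, granzyme A, measured 93.4, 58.8, 65.7 and 18.0 CPM against 13.1, 21.3, 21.9 and 20.4 CPM, and overlapped at 5xFAD replicate 4 (log2 fold change -1.62, SE 0.48). Cd2, an adhesion molecule of T and NK cells, measured 3.79, 2.06, 3.06 and 1.36 CPM against 0.395, 0.570, 0.869 and 0.400 CPM without overlap (log2 fold change -2.15, SE 0.53). Of the 6 tested T or NK cell markers 5 had a log2 fold change below 0 (median -1.08, against 0.14 for all genes) and 2, the granzymes, reached p under 0.05. The summed level of all 10 listed markers was 212, 127, 135 and 45.2 CPM in 5xFAD and 30.3, 51.6, 61.0 and 70.9 CPM in Card9-/-5xFAD. The T cell receptor genes Cd3e, Cd3g, Cd8a and Trac were too low to be tested, with at most 1.62 CPM in any of the 8 libraries. In bulk RNA, fewer cells of a type and less RNA per cell cannot be told apart.

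Further genes of NK cells were chosen after their values were seen, because they were low, and so add no independent support. The receptors Klra7 (log2 fold change -1.50, SE 0.56), Klra9 (-1.49, SE 0.56), Klra3 (-1.87, SE 0.80) and Klrg1 (-1.45, SE 0.58) all had overlapping groups, with levels of 8.04 CPM or less, and the Klra genes are a multigene family whose reads may be split. Il2rg, the chain shared by receptors of interleukin 2 and related cytokines, ran from 13.3 to 36.1 CPM in 5xFAD and from 9.87 to 16.3 CPM in Card9-/-5xFAD (log2 fold change -1.03, SE 0.34).

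Markers of other cells also moved with the comparison. All 7 tested markers of choroid plexus or ependymal cells had a log2 fold change below 0, with a median of -2.64 and 3 at p under 0.05 (Igfbp2, Kcne2 and Kl), although the choroid plexus had been removed. Igfbp2, an IGF-binding protein of these cells, measured 7.73, 6.85, 22.3 and 24.8 CPM in 5xFAD and 0.197, 1.03, 3.48 and 0.801 CPM in Card9-/-5xFAD, without overlap (log2 fold change -3.49, SE 1.12). Kcne2, a potassium channel subunit, had 11 to 33 reads in each 5xFAD library and 0, 1, 7 and 0 reads in Card9-/-5xFAD. The summed level of the 10 listed markers was 1480, 303, 1010 and 838 CPM in 5xFAD and 3.35, 46.2, 561 and 1210 CPM in Card9-/-5xFAD. Transthyretin, Ttr, made up most of it, and its log2 fold change was -0.85 (p above 0.05). The part of these cells in any other gene's difference was not tested.

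Oligodendrocyte markers had 4 of 6 tested below 0 (median -0.43). Mobp, a myelin protein gene, measured 19.0, 45.9, 65.5 and 100 CPM in 5xFAD and 7.89, 12.7, 34.4 and 16.8 CPM in Card9-/-5xFAD (log2 fold change -1.69, SE 0.55), and Mbp, myelin basic protein, had a log2 fold change of -1.26 (SE 0.54). Both overlapped at 5xFAD replicate 1, and the summed level of the 8 listed markers was 192 to 838 CPM in 5xFAD and 243 to 417 CPM in Card9-/-5xFAD. Of 8 tested monocyte markers 1 reached p under 0.05, Cd300e, an activating receptor, with 3.94, 14, 8.99 and 3.81 CPM against 3.65, 3.31, 1.22 and 1.20 CPM (log2 fold change -1.64, SE 0.56) and no overlap. No tested marker of neurons, astrocytes, endothelial cells, red blood cells, neutrophils, B cells or border-associated macrophages reached p under 0.05. Among them 7 of 10 border-associated macrophage markers had a log2 fold change above 0 (median 0.41), and Card9-/-5xFAD replicate 4 had summed levels of 2060 CPM for these and 6000 CPM for neutrophil markers, against 684 to 1090 and 498 to 2110 CPM in the other 7 libraries.

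Of 34 tested DAM genes 26 had a log2 fold change below 0, with a median of -0.41 against 0.14 for all genes, and 2 reached p under 0.05. Lgals3, the lectin galectin-3, measured 336, 269, 212 and 163 CPM in 5xFAD and 78.2, 109, 195 and 93.7 CPM in Card9-/-5xFAD (log2 fold change -1.04, SE 0.31). Spp1, the secreted protein osteopontin, measured 1274, 1662, 1761 and 840.8 CPM against 510.4, 543.9, 871.2 and 127.4 CPM (log2 fold change -1.43, SE 0.59). In both genes the groups overlapped only through Card9-/-5xFAD replicate 3 and 5xFAD replicate 4. Cst7 (-0.65, SE 0.32, p above 0.05), Trem2 (-0.58, SE 0.31, p above 0.05) and Apoe (-0.48, SE 0.33, p above 0.05) were below 0 with overlapping groups. The summed level of the 34 genes was 72200 to 98600 CPM in 5xFAD and 59500 to 81800 CPM in Card9-/-5xFAD. The median stayed between -0.58 and -0.35 under every edgeR alternative tried, and list medians were not taken in the DESeq2 runs. Of 30 homeostatic genes 14 lay above 0 and 16 below (median -0.03), and none reached p under 0.05. Without Card9-/-5xFAD replicate 4, 19 of them lay above 0 (median 0.07).

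Most tested members of the complement, MHC class II, lysosomal and lipid handling lists lay below 0, and none passed the FDR threshold. Complement C1qc measured 8653, 8925, 11058 and 6927 CPM in 5xFAD and 4731, 5200, 8059 and 3773 CPM in Card9-/-5xFAD (log2 fold change -0.71, SE 0.30), and its partner C1qa did not overlap, at 2894 to 3452 CPM against 835.8 to 2529 CPM (log2 fold change -0.74, SE 0.39, p above 0.05). Of 15 tested complement genes 9 had a log2 fold change below 0 (median -0.18), and 8 without 5xFAD replicate 3 (median -0.03). MHC class II genes, which present peptides to CD4 T cells, had 9 of 10 below 0 (median -0.49) and none at p under 0.05, with H2-DMa at -0.69 (p above 0.05) and Ciita, their transactivator, the exception at 0.55 (p above 0.05). Of 33 lysosomal genes 27 lay below 0 (median -0.21). Without Card9-/-5xFAD replicate 4, the library with the lowest sum (23700 CPM against 58400 to 61200 CPM in its group), 15 of them lay below 0 and the median was 0.05. Of 19 lipid handling genes 14 lay below 0 (median -0.08), and 9 without that library (median 0.02).

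Fth1 and Mki67 code for 2 of the proteins the study stained. Fth1, the ferritin heavy chain, measured 7782, 6227, 7521 and 4906 CPM in 5xFAD and 3577, 3658, 6659 and 7332 CPM in Card9-/-5xFAD. The groups overlapped (log2 fold change -0.32, SE 0.34, p above 0.05), and 10 of 18 iron handling genes lay below 0 (median -0.04). Without Card9-/-5xFAD replicate 4, 12 of the 18 lay above 0 (median 0.15), and without replicate 3 of that group 11 did (median 0.11). Mki67, the proliferation marker Ki-67, measured 24.3, 11.2, 13.5 and 9.81 CPM against 14, 13.5, 8.69 and 20.0 CPM (log2 fold change -0.07, SE 0.36, p above 0.05). Of 36 cell cycle genes 20 lay below 0 (median -0.10), and 2 reached p under 0.05: Ube2c, which helps end mitosis, with 40.2, 19.7, 21.4 and 10.8 CPM against 9.67, 10.8, 15.6 and 8.81 CPM (log2 fold change -1.03, SE 0.38), and Birc5, survivin, with a log2 fold change of -0.83 (SE 0.34).

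The remaining lists gave few low p-values. Of 26 cytokine and chemokine genes 17 lay above 0 (65.4%, against 62% of all tested genes), with a median of 0.21. Without Card9-/-5xFAD replicate 4, 11 lay above 0 (median -0.07), and without replicate 3 of that group 14 did (median 0.08). Ccl9, a chemokine of myeloid cells, was the member at p under 0.05, with 655, 631, 577 and 289 CPM in 5xFAD and 288, 294, 492 and 174 CPM in Card9-/-5xFAD (log2 fold change -0.79, SE 0.36). Interferon-stimulated genes (17 of 28 above 0, median 0.11), MHC class I genes (6 of 15, median -0.08), antioxidant and oxidase genes (12 of 23, median 0.02) and glycolysis and hypoxia genes (10 of 21, median -0.03) had no member at p under 0.05. Cholesterol synthesis genes (8 of 18 above 0, median -0.06) had Lss, lanosterol synthase, at 0.67 (SE 0.31). Without 5xFAD replicate 4, 10 of the 28 interferon-stimulated genes lay above 0 (median -0.22). The medians of MHC class I, antioxidant and oxidase, glycolysis and hypoxia, cholesterol synthesis, cell cycle and mitochondrially encoded genes likewise took the opposite sign without 1 or more of the 8 libraries, each in turn. Mitochondrially encoded genes had 7 of 11 above 0, and the low values of mt-Atp6 (-2.94, SE 1.53, p above 0.05) and mt-Co3 (-3.04, SE 1.6, p above 0.05) rested on 5xFAD replicate 1, which held 295 and 399 CPM against 6.40 to 14.2 CPM in the other 5xFAD libraries.

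**Figure D2:**
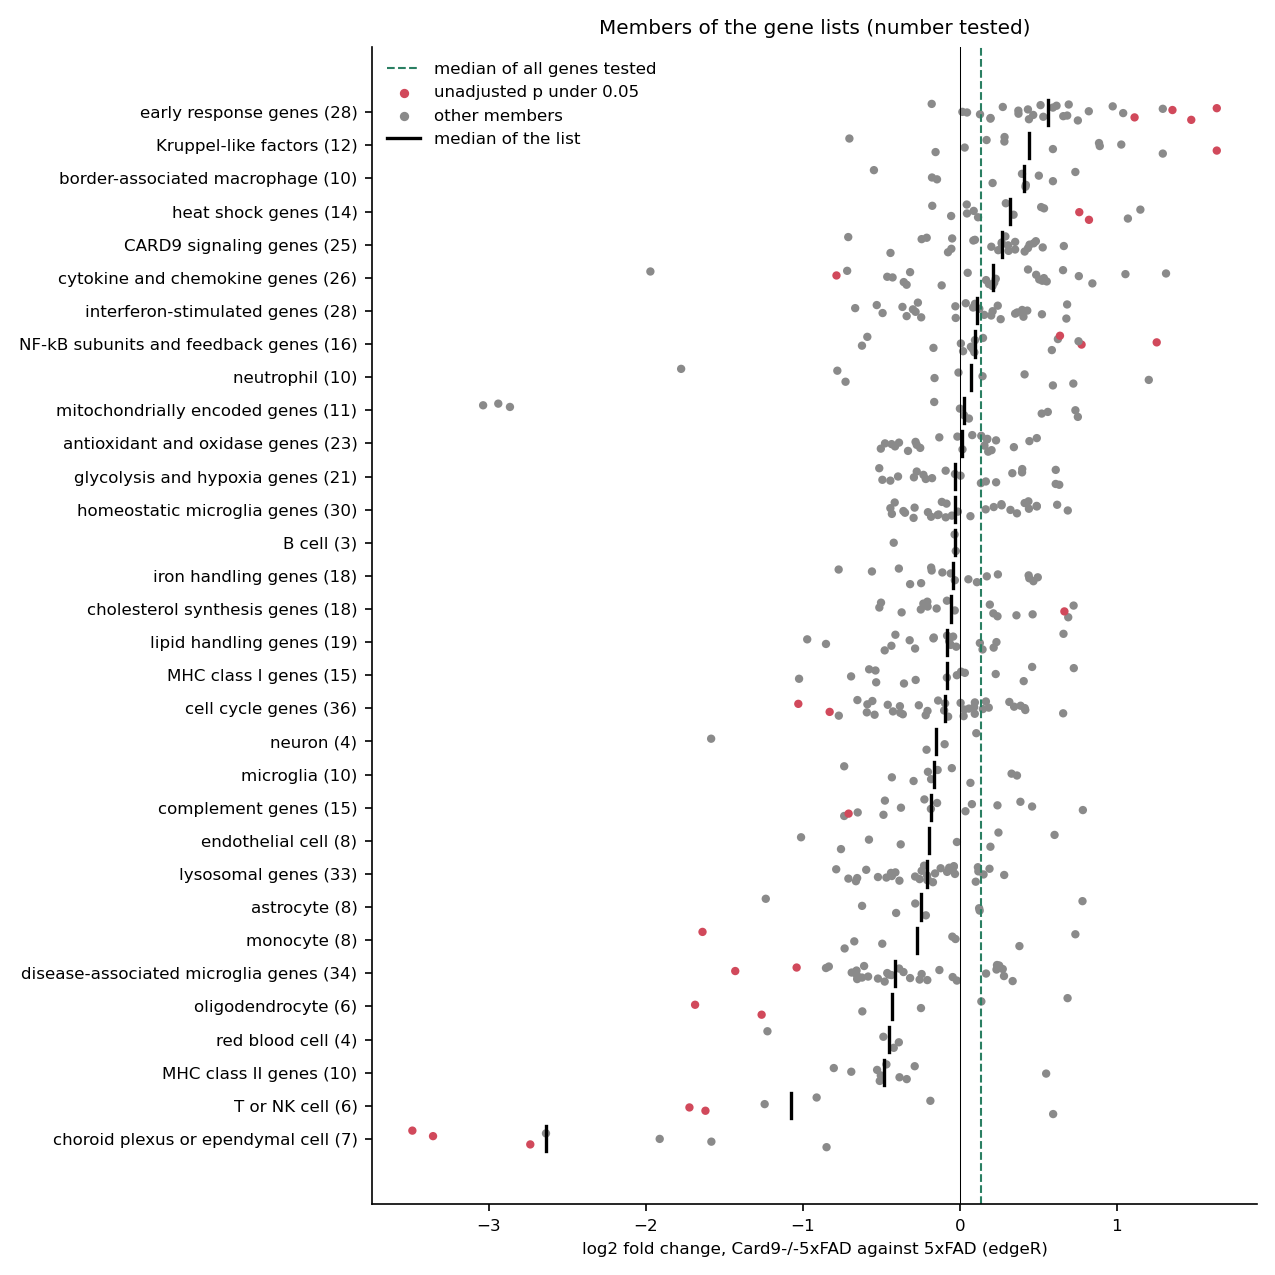
Log2 fold change of Card9-/-5xFAD against 5xFAD (horizontal axis) for every tested member of 32 gene lists (rows, with the number tested), where points are genes, red points have an unadjusted p under 0.05, black bars are list medians and the dashed line is the median of all genes tested (0.14). Early response genes have the highest median (0.56) and choroid plexus or ependymal markers the lowest (-2.64).

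The same deletion outside 5xFAD, Card9-/- against WT, uses none of these 8 libraries, although both comparisons take their estimate of spread from one fit. No gene passed the FDR threshold there either (lowest 0.200), where DESeq2 called 5 genes with all 16 libraries and 8 with the 8 libraries of that comparison, and 597 of 14513 genes reached p under 0.05 (4.11%). Of the 366 genes at p under 0.05 in 5xFAD, 327 (89.3%) had the same sign without the transgenes, against 75.1% of all tested genes. At p under 0.05 with the same sign in both comparisons were 84 of them (23%), 23 higher and 61 lower, against 3.74% of all tested genes, and none was at p under 0.05 with the opposite sign. Without Card9-/-5xFAD replicate 4 the 84 of 366 became 70 of 285 (24.6%), without replicate 3 of that group 242 of 976 (24.8%), and without 5xFAD replicate 1 59 of 408 (14.5%). The slope on log2 exon length of the deviation of log2 CPM from the gene's mean had a median of 0.029 in WT and 0.152 in Card9-/-. It was -0.134 in 5xFAD and -0.018 in Card9-/-5xFAD, with overlapping ranges in each comparison. The part of this slope in the shared signs was not tested.

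Hebp1 and Ly6i were low in both Card9-deficient genotypes. Hebp1 ran from 26.9 to 69.7 CPM in WT and from 4.80 to 15 CPM in Card9-/- (log2 fold change -2.74). Ly6i ran from 17.0 to 21.0 CPM in WT and from 1.31 to 3.85 CPM in Card9-/- (log2 fold change -2.89). Neither pair of groups overlapped. Gzmb (-1.57, SE 0.48), Gzma (-1.91, SE 0.48), Nkg7 (-2.17), Cd300e (-2.13, SE 0.54), Lgals3 (-0.77, SE 0.31), Nenf (-0.71, SE 0.24) and C1qc (-0.65, SE 0.30) were lower there too, each with an unadjusted p under 0.05. The T or NK cell markers did not all go this way. Of 6 tested, 5 lay below 0, 3 of them at p under 0.05, and 1 lay above 0, also at p under 0.05. On the higher side Ppfia4 again differed between libraries of a genotype, with 9.85, 205, 226 and 11.8 CPM in Card9-/- replicates 1 to 4 against 8.27 to 9.67 CPM in WT (log2 fold change 3.65). Its neighbour Klhl12 was high in the same libraries, at 3.24, 9.43, 8.83 and 3.27 CPM in Card9-/- replicates 1 to 4.

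Some differences seen in 5xFAD had no counterpart without the transgenes at p under 0.05. They include Nfkbiz (0.45, SE 0.31), Btg2 (0.24, SE 0.34), Klf4 (0.63, SE 0.73), Madcam1 (-0.72, SE 0.60), Igfbp2 (-0.89, SE 0.99) and Gnb4 (-0.41, SE 0.75). The early response genes had 22 of 28 members above 0 there, with a median of 0.22 and none at p under 0.05. Whether the effect of the deletion differed with the transgenes was tested by the interaction term, which no gene passed at FDR under 0.1 (lowest 1.00; DESeq2 called 1, Gnb4) and 78 genes reached at an unadjusted p under 0.05 (0.537%). The effect on the log2 scale was larger in 5xFAD by 5.12 (SE 1.11) for Gnb4, 1.12 (SE 0.48) for Btg2 and 0.80 (SE 0.44) for Nfkbiz, and differed by -1.88 (SE 0.83) for Madcam1. Nfkbiz was not among the 78 genes, and for none of the 4 was the difference between the effects shown after adjustment.

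**Figure D3:**
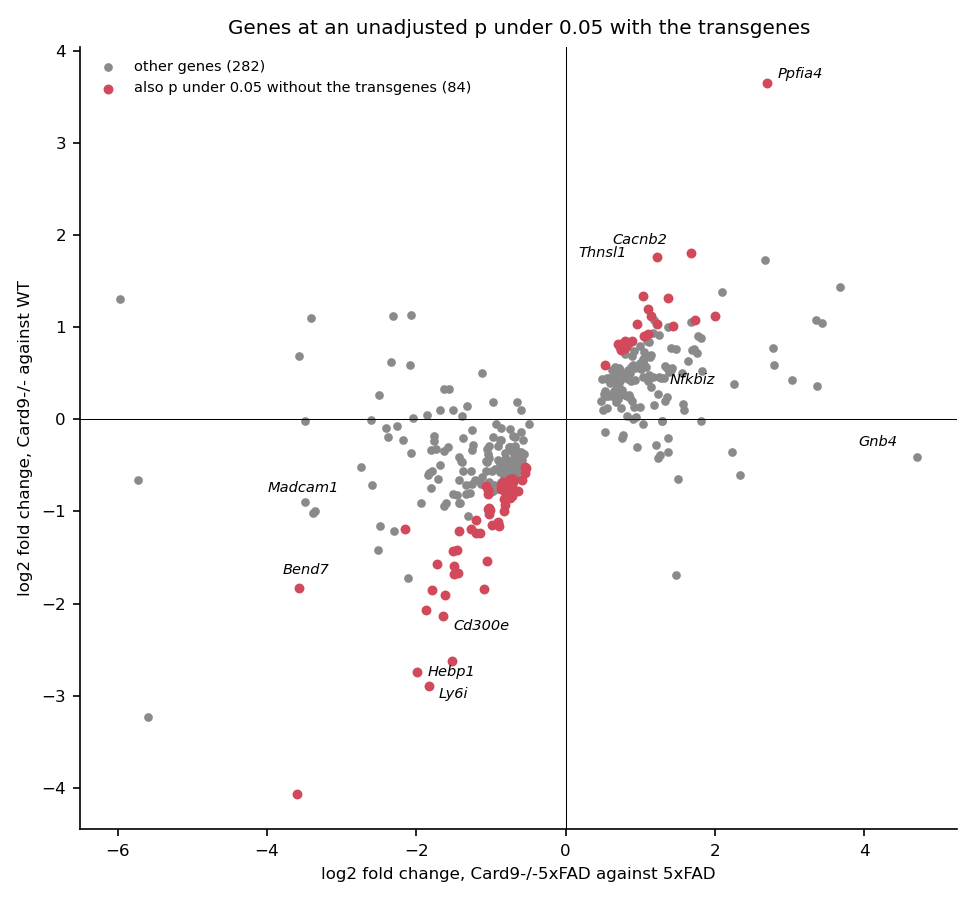
Log2 fold change of Card9-/-5xFAD against 5xFAD (horizontal axis) and of Card9-/- against WT (vertical axis) for the 366 genes at an unadjusted p under 0.05 in the first comparison. The 84 red genes also have p under 0.05 in the second, all with the same sign, and Gnb4 lies far to the right near 0 on the vertical axis.

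Genes near Card9 on chromosome 2 were looked at separately, because genes linked to a deleted allele can be inherited with it. Of 219 tested genes within 10 Mb of Card9 3 were higher and 5 lower at p under 0.05 (3.65%, against 2.52% of all genes). The nearest was Snapc4, a subunit of the snRNA-activating complex, 0.0152 Mb away between gene centres, with a log2 fold change of 1.06 and no overlap. Between 10 and 20 Mb 5 of 75 were higher (6.67%, against 1.1%) and 1 was lower. The 5 were Cacnb2, 2900092N22Rik, Gm37780, Fbh1 and Il15ra, all on the same side of Card9. Cacnb2 and Gm37780 were already among the genes of lowest p on the higher side. Like the lists, this window was chosen with earlier results of these data known. Its share was not tested and adds no independent support. 2900092N22Rik lies inside Cacnb2 and Gm37780 inside Rsu1, so reads of these pairs may be shared.

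Cacnb2, the beta-2 subunit of voltage-gated calcium channels 11.6 Mb from Card9, measured 0.910, 1.78, 0.360 and 0.681 CPM in 5xFAD and 2.17, 2.17, 3.82 and 4.41 CPM in Card9-/-5xFAD, without overlap (log2 fold change 1.68, SE 0.43). In Card9-/- it ran from 7.81 to 8.52 CPM against 1.80 to 2.82 CPM in WT (log2 fold change 1.81). Thnsl1, 5.15 Mb away, measured 1.97, 4.25, 3.6 and 1.91 CPM in 5xFAD and 7.50, 9.36, 5.56 and 4.81 CPM in Card9-/-5xFAD, also without overlap (log2 fold change 1.23, SE 0.36), and ran from 9.81 to 12.1 CPM in Card9-/- against 1.76 to 3.94 CPM in WT (log2 fold change 1.76). Bend7 lies 21.6 Mb from Card9. Of the 84 genes in both comparisons 11 lay on chromosome 2 and 1 of them, Thnsl1, within 10 Mb of Card9. Outside chromosome 2, 73 of 329 genes at p under 0.05 (22.2%) were in both comparisons. Prkcq, a protein kinase C in the same region, had a log2 fold change of 1.93 without the transgenes and measured 1.28, 1.37, 4.34 and 8.01 CPM in Card9-/-5xFAD, where 5xFAD libraries had 1.67 to 4.09 CPM (log2 fold change 0.43, p above 0.05).

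**Figure D4:**
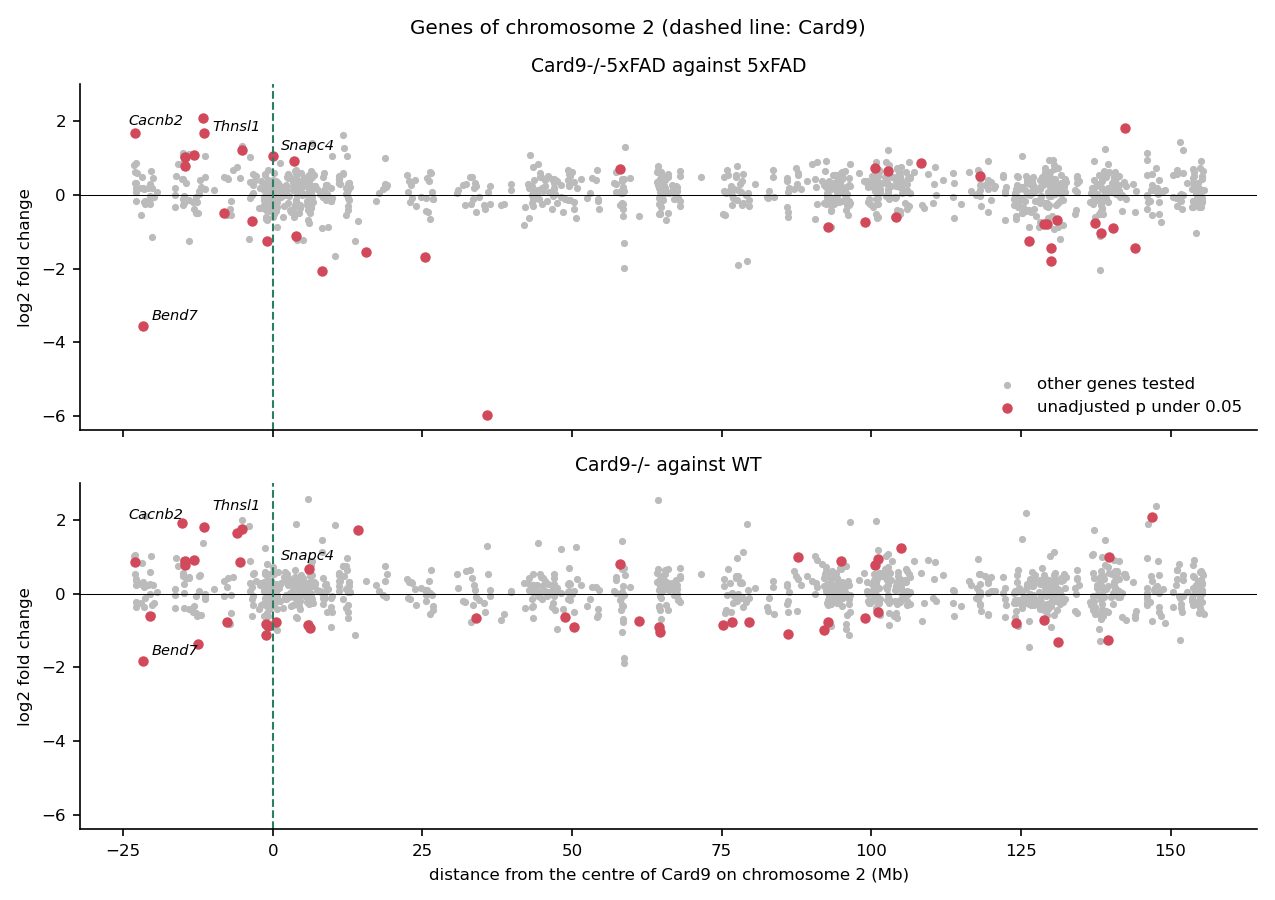
Log2 fold change (vertical axes) of the tested genes of chromosome 2 by their distance in Mb from the centre of Card9 (horizontal axis, dashed line at 0), in Card9-/-5xFAD against 5xFAD (top) and Card9-/- against WT (bottom), with red points at an unadjusted p under 0.05. Cacnb2 and Thnsl1 lie above 0 and Bend7 below 0 in both panels.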

How the data were processed

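RNA-seq of CD11b+ brain cells from 16 mice was analysed. The deposited file holds whole-number counts per gene symbol, not normalized, which the authors made with HISAT2 (mm10), SAMtools and HTSeq. The strand setting is not given in the sources used here. Symbols altered by R's naming rules were restored from GENCODE M21 (4809 symbols). The counts were tested with edgeR 4.0.16 in R 4.3.3 (TMM, filterByExpr with a minimum count of 10, quasi-likelihood fit of all 16 libraries in 4 groups), with Benjamini-Hochberg adjustment over 14513 genes and a threshold of 0.1. DESeq2 1.42.0, sva 3.50.0 and other filters, scalings and sample sets were alternatives. The SE is the log2 fold change divided by the square root of its F statistic. Where a group had 3 or fewer reads in every library, a ratio of pooled counts with an exact 95% interval (counting error only) replaces the fitted fold change. The genes named are Card9, 8 genes the study names, Fth1 and Mki67, the 15 of lowest p in each direction, and list members at p under 0.05 or, in lists with fewer than 2, those of lowest p, not all of which are printed. Klf2, Fos, Dusp1, Ppp1r15a, Maff and other list members outside this rule, the NK cell genes and Prkcq were chosen after their values were seen. The members, lists and tests were chosen with earlier results of these data known, and lists carry no test. The study used littermates as 5xFAD controls, but the labels tie no library to a litter, so p-values measure the spread between these libraries. No 2 libraries of a group were copies: the chi-square statistic divided by its degrees of freedom was at least 6.28 in each of 24 pairs. The fit was tested on simulated counts.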

Additional observations from a re-analysis of the deposited data

Results flagged for a closer look

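Within the 2 groups of 4 libraries, 14 of 188 sets of values for named genes and list sums had 1 library far from the other 3 by Dixon's test, which chance flags in about 1 of 20 groups. In 5xFAD, replicate 1 was high for mt-Atp6 (295 CPM, the others 7.54 to 9.17) and mt-Co3 (399 CPM, the others 6.40 to 14.2), and low for the sum of homeostatic genes (39300 CPM, the others 59700 to 63800). Replicate 3 was high for Gnb4, at 0.899 CPM.

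In Card9-/-5xFAD, replicate 4 was low for lysosomal genes (23700 CPM summed) and B cell markers (392 CPM summed). It was high for Ly6i (7.21 CPM), CARD9 signaling genes (8810 CPM summed), red blood cell markers (68.5 CPM summed) and neutrophil markers (6000 CPM summed). Replicate 3 was high for Mbp (287 CPM), Kl (1.56 CPM) and Kcne2 (1.22 CPM), and replicate 1 was low for Gzma (13.1 CPM).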

How the results depend on the processing

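The number of genes past the FDR threshold depended on the test and the filter. Against 0 in Card9-/-5xFAD against 5xFAD, it was 1 without a filter on low counts, 2 with DESeq2 on all 16 libraries, 9 with DESeq2 on the groups compared and 1 with 1 surrogate variable. In Card9-/- against WT these settings gave 2, 5, 8 and 11, and DESeq2 gave 1 for the interaction. Leaving out 1 library gave 0 to 1 genes in each of the 3 comparisons. At an unadjusted p under 0.05 the 366 genes became 663 without a filter, 187 with at least 10 counts in every library, 572 with DESeq2 on all 16 libraries, 216 with edgeR on the 8 libraries, 1190 with the surrogate variable, and 206 to 976 without 1 of the 8 libraries. The median of all genes moved from 0.14 to 0 without a filter. The correlation of deviations from the group mean between libraries of one replicate number was -0.637, 0.118, 0.256 and -0.512. Between libraries of different numbers it ran from -0.687 to 0.678. These values do not show a pairing by replicate number, but cannot exclude it, since libraries of different numbers shared deviations as large. With the replicate number as a block, 0 genes passed the FDR threshold and 551 had p under 0.05. Of the named genes' alternative values 2261 kept direction and side of the threshold, 14 came to pass it and 10 changed sign. Snap25 was at 0.0057 with the replicate block. Without 1 library, log2 fold changes ran from -0.38 to 0.27 for Mki67, -3.37 to 0.34 for mt-Atp6, -3.68 to 0.31 for mt-Co3, -0.57 to 0.27 for Snap25, -2.88 to 0.036 for Hbb-bs and -0.26 to 0.20 for Ighm. The median of neutrophil markers was -1.05 without Card9-/-5xFAD replicate 4, and the causes were not tested. Low depth limits the Card9-/-5xFAD replicate 4 values most.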
